A study of Mus musculus with 4 samples.

Results

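The 4 mouse Hox clusters and the 500 kb on either side of each were examined for islands of the histone variant macroH2A. The clusters were taken as 4 intervals of the mm9 genome, fixed by position and not by any measured value. Hoxa was chromosome 6 from 52100000 to 52220000, Hoxb chromosome 11 from 96050000 to 96240000, Hoxc chromosome 15 from 102750000 to 102870000, and Hoxd chromosome 2 from 74495000 to 74610000. They hold 38 member genes, of which 10 are Hoxa, 10 Hoxb, 9 Hoxc and 9 Hoxd genes. Of 30016 islands at day 0, 22 touched an interval and 122 touched an interval or its flanks. Of 29473 islands at day 5, the numbers were 17 and 119.

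The study performed chromatin immunoprecipitation and sequencing (ChIP-seq) with an antibody to macroH2A in C2C12, a mouse myoblast cell line. One library came from C2C12 myoblasts at day 0 of differentiation medium and 1 from C2C12 myotubes at day 5, and input chromatin of both days was not analysed here. An island is a stretch of enriched windows of 600 bp joined across short gaps, and each comes with its number of ChIP reads. The labels name no other treatment or genotype, and no RNA was measured, so the cell types and the activity of the Hox genes were not checked. With 1 library a day there was no test and no p-value, so each difference between days is a difference between 2 libraries. The islands held 24365482 reads at day 0 and 29619426 at day 5. Intervals given with reads per kb are exact Poisson 95% intervals and cover counting error only.

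MacroH2A replaces histone H2A in part of the nucleosomes and carries a large macrodomain outside the nucleosome core. It is best known from the inactive X chromosome and from broad domains of silent chromatin. Hox genes encode homeodomain transcription factors that give cells their position along the body and limb axes. The clusters arose by duplication of an ancestral cluster, and in each the gene order follows the order of expression from head to tail. Silent Hox genes are a classic target of Polycomb repression.

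In the order of gene starts in the RefSeq annotation of GRCm38, used for names and neighbours alone, the Hoxa members run with rising coordinates from Hoxa2, a gene of hindbrain and second arch identity, through Hoxa3, Hoxa4, Hoxa5, Hoxa6, Hoxa7, Hoxa9, Hoxa10 and Hoxa11 to Hoxa13, which patterns the distal limb. The other clusters run the opposite way. Hoxb runs from Hoxb13 through Hoxb9, Hoxb8, Hoxb7, Hoxb6, Hoxb5, Hoxb3, Hoxb4 and Hoxb2 to Hoxb1, a hindbrain gene. Hoxc runs from Hoxc13, known for hair and nail growth, through Hoxc12, Hoxc11, Hoxc10, Hoxc9, Hoxc8, Hoxc6 and Hoxc5 to Hoxc4. Hoxd runs from Hoxd13 through Hoxd12, Hoxd11, Hoxd10, Hoxd9, Hoxd8, Hoxd3 and Hoxd4 to Hoxd1. The low-coordinate end is therefore the anterior end of Hoxa and the posterior end of Hoxb, Hoxc and Hoxd. Only Hoxb3 before Hoxb4 and Hoxd3 before Hoxd4 break the number order, and this is an order of annotated starts, not of whole genes. The neighbours are also related. Skap2 lies beside Hoxa and Skap1 beside Hoxb at the anterior end, Calcoco2 lies near Hoxb and Calcoco1 beside Hoxc at the posterior end, and the even-skipped homeobox genes Evx1 and Evx2 lie beside Hoxa13 and Hoxd13. Islands were not assigned to single genes, since gene positions of the mm9 build were not used here.

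The paralogy of the clusters shows in the microRNAs encoded among the Hox genes. Mir10a lies in Hoxb and Mir10b in Hoxd, and Mir196b lies in Hoxa, Mir196a-1 in Hoxb and Mir196a-2 in Hoxc. Their mature forms (RefSeq, GRCm38) are shown since clusters that share them differed in macroH2A cover. Capitals mark the seed, bases 2 to 8, which is the same within each family. 
mmu-miR-10a-5p: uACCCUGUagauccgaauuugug
mmu-miR-10b-5p: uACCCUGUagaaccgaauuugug
mmu-miR-196a-5p: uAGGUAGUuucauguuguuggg
mmu-miR-196b-5p: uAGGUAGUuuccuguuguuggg

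Promoter sequence varied more widely, within a cluster as well as between clusters. The 250 bases upstream of the annotated start of 5 members are shown 5′ to 3′ (RefSeq, GRCm38), 2 of paralog group 13 and 3 of group 4, so that each cluster is seen. Capitals mark every CG, the site of DNA methylation, a motif that reads the same on both strands. The upstream window of Hoxa13 held 35 CG and that of Hoxd13 held 31, against 14 for Hoxb4, 8 for Hoxc4 and 3 for Hoxd4. Within Hoxa the count ran from 3 at Hoxa9 to the 35 of Hoxa13. It also depended on the annotated start, at 20 and 7 for the starts of Hoxa10 and 2 and 20 for those of Hoxd11. Over all 32851 promoters of the table the median was 6, and 92.1% held at least 1. Promoters were on hand for 22 of the 38 members, which is too few for a check of base composition over the clusters, so none was made. 
Hoxa13: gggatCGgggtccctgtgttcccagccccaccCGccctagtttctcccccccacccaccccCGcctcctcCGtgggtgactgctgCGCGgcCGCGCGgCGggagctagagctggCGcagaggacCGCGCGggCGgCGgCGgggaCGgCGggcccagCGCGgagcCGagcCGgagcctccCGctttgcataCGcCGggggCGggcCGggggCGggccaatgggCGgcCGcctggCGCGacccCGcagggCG
Hoxd13: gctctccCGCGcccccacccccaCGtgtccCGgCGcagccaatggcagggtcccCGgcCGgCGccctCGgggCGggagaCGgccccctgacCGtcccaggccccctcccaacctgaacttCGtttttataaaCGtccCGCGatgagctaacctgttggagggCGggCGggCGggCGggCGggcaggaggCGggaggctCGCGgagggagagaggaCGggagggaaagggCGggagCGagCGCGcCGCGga
Hoxb4: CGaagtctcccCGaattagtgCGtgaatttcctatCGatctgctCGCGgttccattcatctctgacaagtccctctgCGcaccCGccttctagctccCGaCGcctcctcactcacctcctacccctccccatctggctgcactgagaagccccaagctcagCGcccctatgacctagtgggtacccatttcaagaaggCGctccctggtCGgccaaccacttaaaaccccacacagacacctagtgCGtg
Hoxc4: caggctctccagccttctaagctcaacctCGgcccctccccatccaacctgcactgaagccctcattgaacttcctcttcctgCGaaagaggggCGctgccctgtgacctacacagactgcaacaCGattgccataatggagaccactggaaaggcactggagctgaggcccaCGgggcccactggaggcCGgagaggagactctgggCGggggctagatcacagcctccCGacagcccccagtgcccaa
Hoxd4: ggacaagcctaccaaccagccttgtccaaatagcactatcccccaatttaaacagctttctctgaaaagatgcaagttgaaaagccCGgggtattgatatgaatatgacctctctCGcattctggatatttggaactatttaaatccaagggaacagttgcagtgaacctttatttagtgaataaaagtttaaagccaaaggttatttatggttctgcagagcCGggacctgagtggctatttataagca

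The clusters fell into different patterns. Hoxa and Hoxc were mostly bare inside, with dense cover at day 0 just beyond the low-coordinate edge, Hoxb was covered inside as part of a wider covered region, and Hoxd was partly covered at day 0 amid sparse flanks. At day 0, islands covered 5.0% of Hoxa, 66.2% of Hoxb, 10.5% of Hoxc and 37.6% of Hoxd. At day 5 they covered 9.0%, 53.4%, 9.0% and 11%. Over both flanks, day 0 coverage was 34.4% around Hoxa, 41.1% around Hoxb, 53.6% around Hoxc and 6.66% around Hoxd. Day 5 values were 42.4%, 40.3%, 55.0% and 9.48%. Summed over the 4 clusters, 34.4% of the intervals was covered at day 0 and 24.9% at day 5, while the flanks went from 33.9% to 36.8%. Over the span from first to last island of every chromosome, the lists covered 12.4% at day 0 and 13.2% at day 5.

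**Figure D1:**
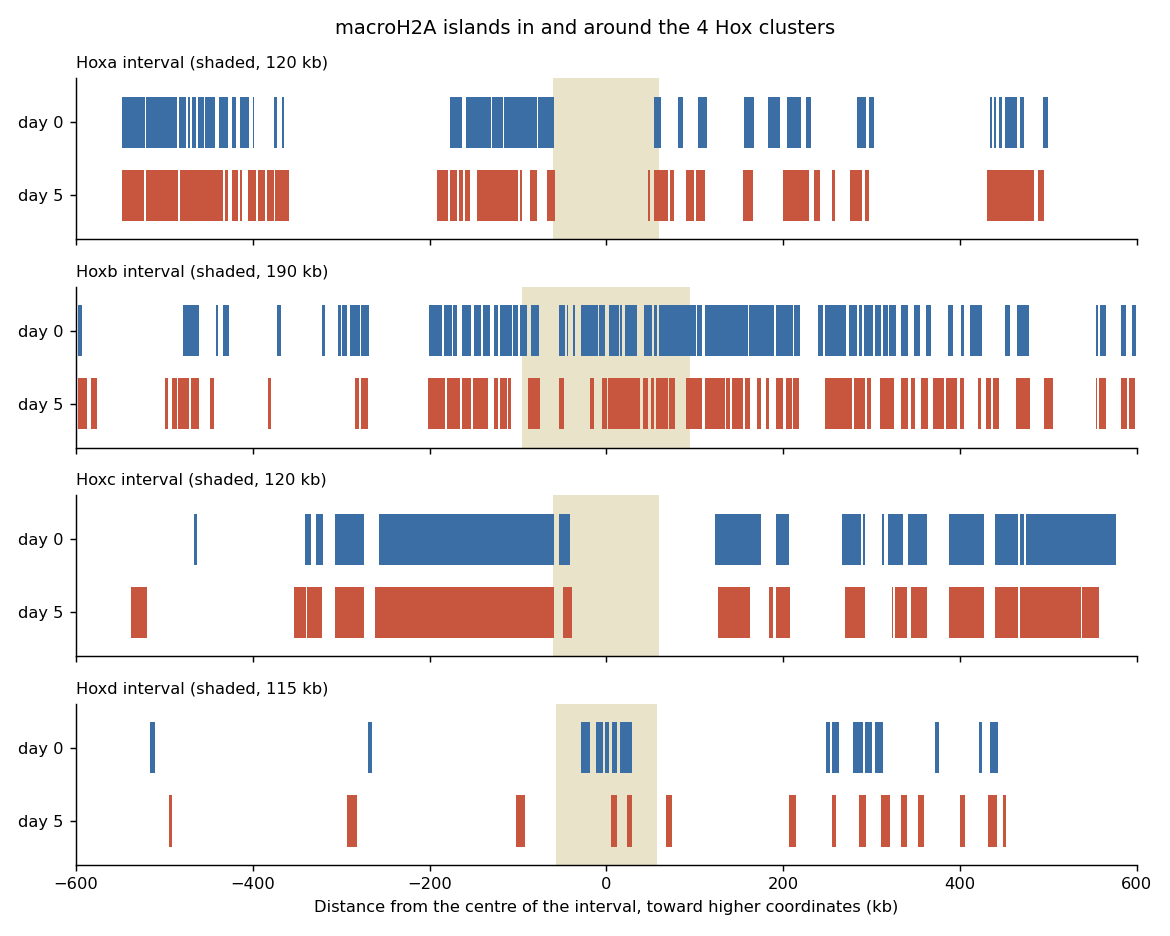
MacroH2A islands (bars) at day 0 and day 5 along each Hox interval (shaded) and its flanks, by distance from the interval centre in kb. Hoxa and Hoxc are nearly empty inside, Hoxb is filled with islands, and Hoxd goes from 5 islands to 2.

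**Figure D2:**
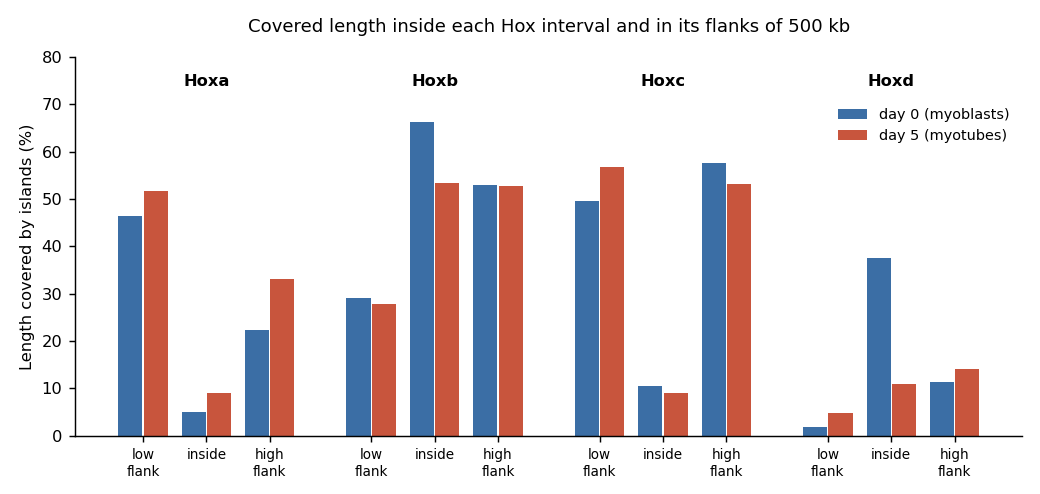
Percent of length covered by islands inside each Hox interval and in the 500 kb toward lower (low flank) and higher (high flank) coordinates, 1 library a day, so there are no error bars. The inside bars lie below both flanks for Hoxa and Hoxc at either day. For Hoxb they lie above both flanks at day 0, but at day 5 the inside (53.4%) is close to the high flank (52.8%).

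Hoxa was the barest interval at day 0. It held 2 islands then, and both crossed an edge. One, from 52083001 to 52100400, reached 0.4 kb into the low, anterior end. The other, from 52214401 to 52221600, covered the last 5.6 kb of the high, posterior end. Between them lay 114 kb with no island, 95% of the interval. At day 5 the bare stretch was 104 kb, from 52102201 to 52206600. It was shortened from both ends: the low island now reached 2.2 kb inside, and a 3.0 kb island appeared from 52206601 to 52209600 with 313 reads. That island had 104 reads per kb (93.1 to 117), at least as dense as 92.6% of day 5 islands, and no day 0 island overlapped it. Reads in islands came to 452 inside the interval at day 0 and 996 at day 5. Per kb of covered length this was 75.3 (68.5 to 82.6) and 92.3 (86.6 to 98.1), or 3.09 and 3.11 per kb per 1000000 island reads. On that scale the days differed by less than the counting intervals.

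The flanks of Hoxa were uneven. On the low side, where Skap2, an adaptor protein gene, is the nearest neighbour, islands covered 96.4% of the first 50 kb and 91.2% of the next 50 kb at day 0. On the high side, where Evx1 is the nearest neighbour, they covered 25.6% and 17.2%. At day 5 the first 50 kb were 53.2% covered on the low side and 62.8% on the high side. The nearest low island went from 17.4 kb with 1151 reads to 9.6 kb with 703 reads, while the nearest high island went from 7.2 kb with 547 reads to 15.6 kb with 1455 reads. Its start, at 52214401, lay in the same window at both days. Within 50 kb of the edges, cover was therefore lower on the low, anterior side and higher on the high, posterior side at day 5.

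Farther out, the widest low-side island was 36.6 kb at day 0, from 52044601 to 52081200, with 76.0 reads per kb (73.2 to 78.8). At day 5 it was a 49.2 kb island from 51677401 to 51726600 with 103 reads per kb (100.2 to 105.9). On the high side the widest went from 15.6 kb, from 52364401 to 52380000, to 52.8 kb, from 52590601 to 52643400. Covered length over the whole flanks went from 231.8 to 258.2 kb on the low side and from 112 to 166 kb on the high side. Where both days had islands in the low flank, the log2 ratio of read density, day 5 over day 0, had a median 0.27 above the genome median of 0.19, a relative change of 1.21-fold. Relative to that median, windows of the genome had a 5th percentile of -0.32 and a 95th of 0.35. All intervals and flanks with such windows lay within this range, from -0.18 in the high flank of Hoxd to the 0.27 here. The range is of single 600 bp windows, while each of these values is a median over many windows, which varies less. It therefore cannot show whether a change is usual for a region of this size.

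Low cover alone does not set Hoxa apart on its chromosome. Of 1206 intervals of 120 kb on chromosome 6, 68.9% were covered no more than Hoxa at day 0 and 67.8% at day 5, and 60.4% and 55.9% had no island. Few of them combined a bare centre with covered flanks, but flanks as covered were themselves uncommon. Flanks covered no less than those of Hoxa occurred in 54 intervals (4.48%) at day 0 and 29 (2.4%) at day 5. Among those, 12 at day 0 (0.995% of all 1206) and 7 at day 5 (0.58%) were also covered no more than Hoxa inside. The gain of 4.8 kb inside Hoxa was met or passed by 25.9% of these intervals, and without the 25% of islands with fewest reads it was 1.8 kb. With the edges moved 10 kb inward, the interval had no island at day 0 and was 3.0% covered at day 5. Moved 10 kb outward, it was 12.6% and 20.1% covered, so the cover counted to Hoxa lies at its margins.

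Hoxc also had a bare centre, beside a far wider island than any around Hoxa. A 197.4 kb island from 102553201 to 102750600 ran up to its low, posterior end at day 0 and stopped 0.6 kb inside. It held 20832 reads, 106 per kb (104.1 to 107.0). At day 5 the island was 202.2 kb, from 102548401 to 102750600, with 22376 reads, 111 per kb (109.2 to 112.1), and it ended in the same window. The nearest neighbour on this side is Calcoco1, a coiled-coil coactivator gene, and Hoxc13 is the first Hox gene. Cover of the first 100 kb outside this edge was complete at both days. This island was at least as wide as 99.99% of day 0 islands and 99.98% of day 5 islands.

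Inside Hoxc, 1 further island lay near the same end. It ran from 102756601 to 102768600 at day 0 with 907 reads, 75.6 per kb (70.7 to 80.7). At day 5 it ran from 102761401 to 102771600 with 951 reads, 93.2 per kb (87.4 to 99.3). These islands overlapped, and at day 5 the inner island stood farther from the wide outer domain. Beyond the inner island no island was listed for 164.4 kb at day 0 and 165.0 kb at day 5. Of the gaps between islands on chromosome 15, 6.08% at day 0 and 4.86% at day 5 were as long. That bare stretch took in 84.5% and 82.0% of the interval and ran 63.0 and 66.6 kb past its high, anterior end. The first 50 kb on that side, toward Smug1, a DNA repair glycosylase gene, and Cbx5, which encodes a heterochromatin protein, had no island at either day.

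The next island on the anterior side of Hoxc was 52.2 kb wide at day 0, from 102933001 to 102985200, with 78.7 reads per kb (76.3 to 81.2). It was 35.4 kb wide at day 5, from 102936601 to 102972000, with 105.0 reads per kb (101.7 to 108.4). The widest on that side went from 101.4 kb, from 103284601 to 103386000, to 69.0 kb, from 103277401 to 103346400. Islands in the flanks of Hoxc were wide and dense, with a median of 85.9 reads per kb at day 0 and 98.4 at day 5, against 72.9 and 80.9 over all islands. Cover of both flanks together stayed close, at 536 kb and 550.2 kb. The length covered at both days, as a fraction of the length covered at either, was 0.834 on the low side and 0.828 on the high side, against 0.633 and 0.385 around Hoxa.

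**Figure D3:**
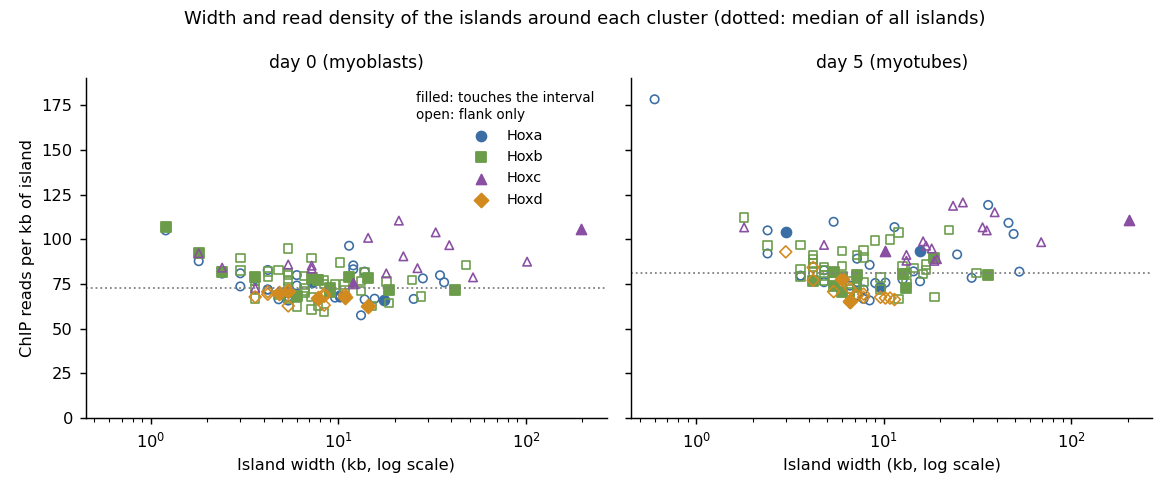
Island width (kb, log axis) against ChIP reads per kb for the islands around each cluster, day 0 left and day 5 right, with filled symbols for islands that touch the interval. Hoxc islands reach the greatest width and mostly lie above the median of all islands (dotted line), and Hoxd islands mostly lie below it.

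Chromosome 15 is densely covered. Inside cover as low as that of Hoxc was less common there than cover as low as that of Hoxa on chromosome 6. Of 826 intervals of 120 kb, the median was 22.2% covered at day 0 and 28.5% at day 5, and 40.4% and 34.5% were covered no more than Hoxc. A centre as bare with flanks as covered occurred in 12 (1.45%) at day 0 and 5 (0.605%) at day 5. By this measure Hoxc was not the less common, since the shares for Hoxa were 0.995% and 0.58%. Flanks as covered as those of Hoxc, whatever the centre, occurred in 158 intervals (19.1%) and 171 (20.7%). The change of -1.8 kb inside Hoxc was small, and 28.7% of the intervals lost as much or more. With the edges moved 10 kb outward, 16.1% and 14.9% of the interval was covered, against 10.5% and 9.0% with the edges as set. The added cover came from the wide domain that ends at its edge, and the inner island was counted either way.

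Hoxb was the most covered cluster, and it lay within a covered region rather than standing apart from it. At day 0, 13 islands touched the interval and covered 125.8 of its 190 kb. At day 5, 10 islands covered 101.4 kb, 24.4 kb less. The longest bare stretch inside was 23.4 kb at day 0, from 96068401 to 96091800, and 28.8 kb at day 5, from 96097201 to 96126000. Both lay toward the low, posterior end, the side of Hoxb13. Cover was higher on the anterior side of the midpoint, at 80.8% and 75.4%, than on the posterior side, at 51.6% and 31.4%. Covered length went from 49.0 to 29.8 kb on the posterior side and from 76.8 to 71.6 kb on the anterior side, so most of the loss was posterior.

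On the posterior side of the midpoint, Hoxb held narrow islands beside 1 of 18.6 kb. At day 0 the narrower ones ran from 96059401 to 96068400 (635 reads), from 96091801 to 96097800 (410 reads), from 96100801 to 96102000 (128 reads), from 96107401 to 96109200 (166 reads) and from 96136801 to 96144000 (566 reads). The islands of 128 and 166 reads had no day 5 overlap. At day 5 islands over the first pair ran from 96056401 to 96069600 (957 reads) and from 96091201 to 96097200 (474 reads). Both places therefore held an island at either day. Nearer the midpoint, day 5 islands ran from 96126001 to 96131400 (440 reads) and from 96139801 to 96145200 (399 reads), the last just across it.

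On the anterior side, narrower day 0 islands ran from 96187801 to 96196800 (655 reads) and from 96198601 to 96202200 (285 reads). Day 5 islands there ran from 96186601 to 96192600 (424 reads) and from 96195001 to 96199200 (322 reads). Every day 5 island that touched Hoxb overlapped a day 0 island, 10 of 10, against 68.5% of all day 5 islands. In reverse 10 of 13 did so, against 71.4% of all day 0 islands. Day 0 islands covered 66.2% of the interval, so any overlap is easily met there. By windows, 81.7% of those covered at day 5 and 65.7% of those covered at day 0 were covered at both days. The same shares over the genome are not given here.

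Other islands of Hoxb show where cover receded. A 42.0 kb island from 96204001 to 96246000 crossed the anterior end at day 0 with 3013 reads, 71.7 per kb (69.2 to 74.3). At day 5 that stretch held shorter islands, from 96201601 to 96214200, from 96216001 to 96223200 and from 96234601 to 96253200. An 18.6 kb island of day 0, from 96116401 to 96135000, was 29.0% covered by day 5 islands. In the other direction, 3 day 0 islands between 96147601 and 96180000 lay wholly within 1 day 5 island of 36.0 kb, from 96147001 to 96183000, holding 2884 reads, 80.1 per kb (77.2 to 83.1). At the posterior end, the island from 96047401 to 96055200 reached 5.2 kb inside at day 0 and met no day 5 island. The nearest outer island at day 5 lay 13.4 kb from the edge, from 96034201 to 96036600.

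Read density inside Hoxb was near that of an ordinary island. It was 74.7 reads per kb of covered length (73.2 to 76.2) at day 0 and 78.7 (77.0 to 80.4) at day 5. Per 1000000 island reads this was 3.06 and 2.66. Where both days had islands, the median log2 ratio stood at -0.15 relative to the genome median, a relative change of 0.903-fold. This lay between the 5th and 95th percentiles of single genome windows, -0.32 and 0.35, a range too wide to judge a median over many windows.

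Outside Hoxb, cover was higher on the anterior side, where Skap1 lies, than on the posterior side toward Ttll6 and Calcoco2. The anterior flank was 53.0% covered at day 0 and 52.8% at day 5, and the posterior flank 29.2% and 27.8%. The first 50 kb were 89.2% and 85.6% covered on the anterior side and 74.8% and 50.4% on the posterior side. The widest flank islands were 48.0 kb at day 0, from 96256801 to 96304800, and 31.2 kb at day 5, from 96391801 to 96423000, both on the anterior side. On the posterior side they were 18.0 kb, from 95666401 to 95684400, and 18.6 kb, from 95943601 to 95962200. Inside coverage was 25.1 points above the flanks at day 0 and 13 points above at day 5. With flanks of 100 kb it was 15.5 and 15.6 points below them, so the sign depends on how far the flanks reach.

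Among 617 intervals of 190 kb on chromosome 11, 95.8% were covered no more than Hoxb at day 0 and 89.6% at day 5. Intervals covered no less inside and no more in the flanks made up 2.43% and 7.78%, and those covered no more inside and no less in the flanks 8.27% and 6.97%. A loss of 24.4 kb or more occurred in 37 intervals (6.0%). Only intervals with that much cover at day 0 could lose it. At day 0, 28.2% of them had no island and the median was 12.3% covered, against 66.2% in Hoxb. With a floor of 70 reads per kb at day 0, scaled up at day 5 as the medians of island density differ, the loss was 47.2 kb, and with 70 at both days the change was -18.4 kb.

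**Figure D4:**
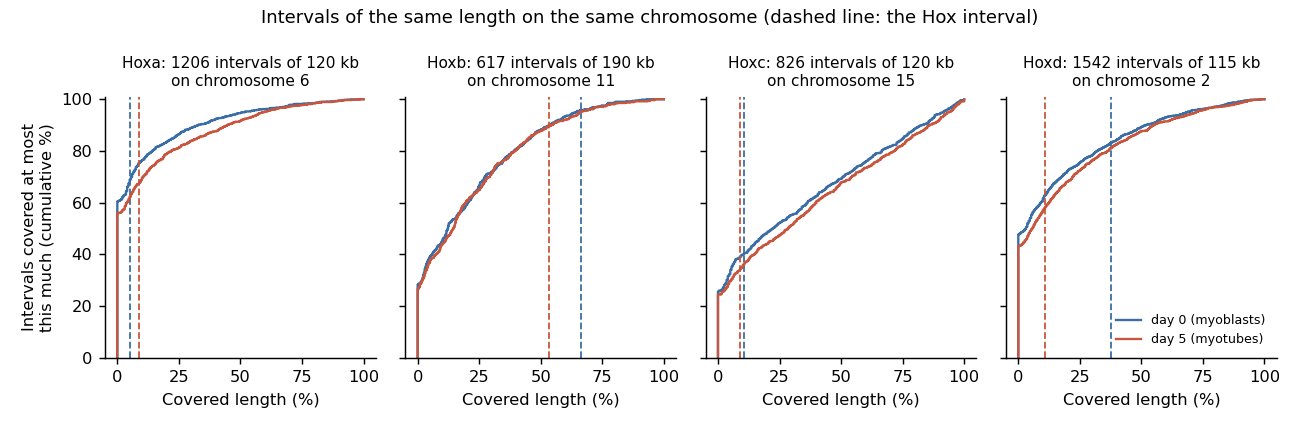
Cumulative percent of intervals covered at most the percent on the x axis, for intervals of each cluster's length on its own chromosome at day 0 and day 5, with the Hox interval as a dashed line. Hoxb lies far to the right of most intervals, Hoxc lies left of the median of chromosome 15, and the Hoxd line moves from 37.6% to 11%.

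Hoxd differed from the other clusters at day 0 in having cover inside and little around it. By day 5 its inside and flank cover were close, at 11% and 9.48%. At day 0, 5 islands lay between 74523601 and 74581800, the central part of the interval, and covered 43.2 kb. They were 10.8, 7.8, 4.8, 5.4 and 14.4 kb wide and held 731, 522, 335, 383 and 906 reads. At day 5, 2 islands covered 12.6 kb, from 74557801 to 74564400 with 432 reads and from 74575801 to 74581800 with 466 reads. Each ended in the same window as a day 0 island. The 3 islands nearest the posterior end, the side of Hoxd13, had no counterpart at day 5, and the part of the interval on that side of the midpoint went from 35.7% to 0% covered. Of the covered windows of day 0, 26.4% were covered at day 5, and 90.5% in reverse.

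The flanks of Hoxd had few islands. At day 0 the nearest lay 207.8 kb from the posterior end, from 74283001 to 74287200, and 191.4 kb from the anterior end, from 74801401 to 74805600. The bare stretch on the posterior side, where Evx2 and Lnpk are the nearest neighbours, was 236.4 kb long at day 0. At day 5 islands stood closer, 35 kb from the posterior end, from 74450401 to 74460000, and 10.2 kb from the anterior end, from 74620201 to 74626800, on the side of Mtx2. No day 0 island overlapped either. The widest flank islands were 5.4 kb at day 0, from 74036401 to 74041800, and 11.4 kb at day 5, from 74259001 to 74270400, on the posterior side. On the anterior side they were 10.8 kb at both days, from 74832001 to 74842800 and from 74983801 to 74994600. Covered length in both flanks went from 66.6 to 94.8 kb, while the inside fell by 30.6 kb.

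The Hoxd islands were of low density. All 5 inside islands of day 0, and both of day 5, lay below the median density of their list. Inside density was 66.6 reads per kb (64.2 to 69.1) at day 0 and 71.3 (66.7 to 76.1) at day 5. With a floor of 70 reads per kb at both days, 4.70% of Hoxd was covered at day 0 and 5.22% at day 5, and the change turned to 0.6 kb. With that floor scaled up at day 5, Hoxd was 0% covered at day 5 and the change was -5.4 kb. The day 5 library had 1.22 times the island reads and a median island density 1.11 times that of day 0, and the part of this in the Hoxd difference was not tested. Of 1542 intervals of 115 kb on chromosome 2, 83.1% were covered no more than Hoxd at day 0 and 58.4% at day 5. A loss of 30.6 kb or more occurred in 34 of them (2.2%). Only intervals with that much cover at day 0 could lose it, and 47.6% had no island then. The upper quartile of day 0 cover was 24.5%, against 37.6% in Hoxd. The share among intervals able to lose as much is therefore higher and is not given here. Cover no less inside with flanks no more covered occurred in 8 (0.519%) at day 0 and 61 (3.96%) at day 5, and the opposite combination in 46.6% and 24.3%.

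Set side by side, the ends of the clusters showed no shared rule by anterior or posterior side. In the first 50 kb beyond the anterior end, day 0 cover was 96.4% for Hoxa and 89.2% for Hoxb, and Hoxc and Hoxd had no island there. Beyond the posterior end it was 25.6% for Hoxa, 74.8% for Hoxb and 100% for Hoxc, and Hoxd again had none. At day 0 the sides of the related neighbours Skap2 and Skap1, and of Calcoco2 and Calcoco1, were thus densely covered, while those of Evx1 and Evx2 were thinly covered or bare. At day 5 this did not hold. The first 50 kb were then 62.8% covered on the Evx1 side and 19.2% on the Evx2 side, against 53.2% on the Skap2 side, 85.6% on the Skap1 side, 50.4% on the Calcoco2 side and 100% on the Calcoco1 side. Which of these genes the islands cover was not determined.

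Most islands in the flanks recurred in the other library. Of 100 flank islands at day 0, 82 overlapped a day 5 island (82.0%), against 71.4% of all day 0 islands. Of 102 at day 5, 74 overlapped a day 0 island (72.5%), against 68.5% of all. Neighbouring islands of 1 library are not independent, so these shares carry no interval and were not tested. The flanks were 33.9% covered at day 0 and 36.8% at day 5, against 12.4% and 13.2% over the chromosome spans. Any overlap is easier to meet where cover is dense, and the part of this in the shares was not tested. Around Hoxa 29 of 31 day 0 flank islands recurred, and around Hoxd 5 of 10. Fixed edges such as that of the wide Hoxc domain were not more frequent around the clusters. Of the 122 islands at day 0, 14 (11.5%) started and 11 (9.02%) ended in the same window as a day 5 island, against 11.3% and 11.0% of all day 0 islands. Input reads were not analysed, so more macroH2A and more DNA in the sample cannot be told apart in read density, and a missing island shows only that no island was listed.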

How the data were processed

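MacroH2A ChIP-seq of C2C12 cells was deposited as 1 island list for each of 2 libraries, day 0 and day 5. The authors deposited a whole-number count of ChIP reads for each island, and the values are unscaled. SICER 1.1, Bowtie2 2.2.6, CASAVA 1.4 and MACS 1.4.2 are listed, per the submitters' processing notes, beside the build mm9 and without roles. Per the names of the deposited lists, SICER used 600 bp windows, gaps of up to 1200 bp and an FDR of 0.01. Use of the input as control and handling of duplicate reads are not given in the sources used here. Starts and ends were tested to lie on the 600 bp grid.

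Island reads are not the sequencing depth, which is not given in the sources used here. Covered length, islands and reads were summed in each Hox interval and in 500 kb on either side, splitting the reads of an island at an edge by length. Intervals of the same length abutted each other, were anchored on the cluster, and kept both flanks between the first and last island of the chromosome. Their shares are descriptions, not tests. Coordinates count from 1. All 38 members matched the RefSeq gene table of GRCm38, used for order alone. Islands named are those touching an interval and, on each side and day, the nearest and the widest. The comparison of intervals covered no less inside and no more in the flanks was chosen after the data were seen. The clusters, members and lists were chosen with earlier results of these data known. The coverage code was checked on simulated islands. Values came from pandas 2.3.3 and NumPy 2.4.6 under Python 3.11.15, intervals from SciPy 1.17.1 and figures from matplotlib 3.10.9. Alternatives merged neighbouring islands up to 5 kb apart, dropped those under 3 kb or the 25% with the lowest read counts, set floors of 70 reads per kb, moved the edges by 10 kb, took flanks of 100 or 200 kb, slid the intervals by 10 kb, left out intervals with no island in them or their flanks, took reads of whole islands, and required 50% overlap.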

Additional observations from a re-analysis of the deposited data

How the results depend on the processing

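Covered percentages inside an interval counted as moved beyond the exact binomial interval over its 600 bp windows, a tolerance and not a sampling error, and 15 of 56 moved. With edges 10 kb inward, Hoxa was 0% covered at day 0 and 3.0% at day 5, and Hoxd 45.5% at day 0. With edges 10 kb outward, Hoxa was 12.6% and 20.1% and Hoxc 16.1% and 14.9%. Merging islands within 5 kb fills gaps by construction and gave 76.9% and 59.7% for Hoxb, 45.4% for Hoxd at day 0 and a Hoxd change of -39.6 kb. A floor of 70 reads per kb left Hoxd at 4.70% and 5.22% and reversed its change to 0.6 kb. With the floor scaled at day 5, Hoxd was at 4.70% and 0%, a change of -5.4 kb, and Hoxb at 38.2% at day 5, a change of -47.2 kb. The other 16 of 20 recomputed day changes kept their direction, within the wider of the tolerances of the days. Among them the Hoxa gain was 1.8 kb without the 25% of islands with fewest reads, 9.6 kb with merging and 3.0 kb with the scaled floor. Inside minus flank coverage reversed in 5 of 72 recomputed values and moved in 24, and flank percentages moved in 36 of 56. At day 0 the Hoxb difference fell to 1.31 points with 200 kb flanks, and the Hoxd difference to 3.74 with the floor of 70. For Hoxb it was -15.5 points at day 0 and -15.6 at day 5 with flanks of 100 kb, and -0.98 at day 5 with 200 kb. For Hoxd at day 5 it was -0.15 with edges outward and -0.72 with the scaled floor. The shares of intervals covered no more than each cluster stayed within 1.5 times in all 56. Requiring 50% overlap lowered the shared flank islands by construction to 70% at day 0 and 62.7% at day 5. The share of all islands under that rule is not given here, so these values have no background. Reads per kb inside Hoxc rose to 104 and 110 when whole islands were counted, since the wide outer domain then enters whole. The cause of other changes was not tested. With 1 library a day, variation between cultures was not measured.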
